A study of Homo sapiens and Mus musculus and synthetic construct with 31 samples.

Results

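Divergent TSS pairs are places where transcription starts on opposite strands and runs outward from a short stretch of DNA. Members were taken from the tile coordinates alone: within a species and chromosome, a minus-strand TSS had to lie 20 to 600 bp below a plus-strand TSS. Pairs were formed from the shortest distance upward and each TSS was used once. A TSS whose nearest partner was already taken was joined to the nearest one still free. This gave 1175 pairs among 6774 TSS-overlapping tiles, 589 human pairs in 578 loci and 586 mouse pairs in 577 loci. The median distance between the 2 TSSs was 134 bp in human and 123 bp in mouse. After a filter that kept sequences with at least 50% of their barcodes at 10 or more plasmid DNA reads, 995 pairs were measured in both directions, 494 human and 501 mouse. Pairs with gene starts were lost more often: 94.0% of human and 94.2% of mouse pairs without a gene start passed, against 71.2% and 77.2% of pairs with gene starts on both sides.

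The data come from a massively parallel reporter assay (MPRA), in which barcoded 144-base tiles of human and mouse TSSs were placed upstream of a GFP reporter and the barcodes were counted in plasmid DNA and in RNA. The pool was transfected into human ESCs of the HUES64 line (hESCs, 3 passages, 9 libraries) and into mouse ESCs derived from blastocysts (mESCs, 3 passages, 3 libraries), and RNA was compared with 1 plasmid DNA library. Both cell types received the same human and mouse sequences. Cell line, medium and transfection reagent differed together with the species of the cells and cannot be told apart from it, and the sources used here do not say whether the counted pool carried a minimal promoter. Libraries held 61362734 to 117103221 reads on indexed barcodes. Untransfected cells of both species expressed all 5 of the listed ESC markers (POU5F1, SOX2, NANOG, LIN28A and DPPA4) in every library, while 3 of 5 fibroblast or feeder genes in hESCs and 0 of 5 in mESCs reached 1 RPKM in every library. Summed over the list, the latter genes stood at 83.76 to 92.6 RPKM in hESCs, of which THY1 alone made 67.1 to 75.5, and at 0.43 to 1.06 RPKM in mESCs. In hESCs COL1A1 stood at 8.94 to 14.1 RPKM and COL1A2 at 6.19 to 7.28 RPKM, while COL3A1 was at or below 0.029 RPKM and LUM at 0 in both cell types. The paper describes both cultures as feeder-free, and the source of these transcripts was not tested.

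Many mammalian promoters and enhancers start transcription in both directions, from separate core promoters that flank a shared nucleosome-free region bound by transcription factors. At promoters the partner of an mRNA is often a short-lived upstream antisense RNA or a lncRNA, and at enhancers both products are usually unstable eRNAs. An MPRA takes these RNAs out of the chromosome and asks what each direction's own DNA can drive. Tile 1 of each TSS runs from 114 bases upstream to 30 bases downstream, in the orientation of its own transcript. In 446 of 589 human and 474 of 586 mouse pairs the 2 tiles therefore share DNA, read on opposite strands. At a distance of 84 bp they are the same 144 bases turned around.

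To show what lies between such TSSs, the stretches that carry the main findings are printed from the assay's tile sequences, plus strand, on hg19 for human and mm9 for mouse. Capitals mark exact matches to short words of known factors on either strand (CCAAT box CCAAT, GC box GGGCGG, ETS CCGGAAG, NRF1 GCATGCG, AP-1 TGAGTCA and POU ATGCAAA); none of these stretches overlaps an annotated exon. The first 4 were equally strong in both directions or were the same DNA turned around.

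Intergenic eRNA pair, chr11:112752272-112752399: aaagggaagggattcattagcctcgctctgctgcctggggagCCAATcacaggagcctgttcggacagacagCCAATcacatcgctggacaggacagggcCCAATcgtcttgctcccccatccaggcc
ATAD3A pair, chr1:1447419-1447541: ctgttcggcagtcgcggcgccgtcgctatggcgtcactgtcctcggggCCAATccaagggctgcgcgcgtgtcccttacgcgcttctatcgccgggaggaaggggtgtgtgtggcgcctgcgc
Mouse Herc4 pair, chr10:62706413-62706513: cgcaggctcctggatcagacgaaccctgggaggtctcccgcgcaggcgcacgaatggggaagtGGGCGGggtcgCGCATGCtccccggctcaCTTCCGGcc
Mouse intergenic pair 84 bp apart, chr16:25059046-25059129: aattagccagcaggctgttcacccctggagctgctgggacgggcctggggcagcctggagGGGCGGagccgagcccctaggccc

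The next 3 are enhancer pairs whose activity changed with the cell type: a human and a mouse pair that the study lists as orthologs, nearest to the start of KLF4 and Klf4, and a human pair with an AP-1 word on its minus side.

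Human KLF4 side, chr9:110512181-110512251: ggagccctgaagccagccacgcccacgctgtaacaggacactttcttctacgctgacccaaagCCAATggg
Mouse Klf4 side, chr4:55743324-55743425: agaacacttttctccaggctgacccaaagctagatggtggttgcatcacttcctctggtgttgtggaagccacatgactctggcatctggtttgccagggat
Human eRNA pair, chr15:101253819-101254025: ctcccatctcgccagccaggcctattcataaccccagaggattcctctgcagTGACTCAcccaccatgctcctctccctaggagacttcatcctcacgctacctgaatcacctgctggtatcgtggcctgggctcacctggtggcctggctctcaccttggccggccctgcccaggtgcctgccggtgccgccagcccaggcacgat

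The first question was how often both directions drove the reporter. Activity is RNA over DNA, scaled so that the median random sequence is 1, and a direction is called active when its log2 mean stands above the spread of the random sequences at an adjusted p under 0.05. In hESCs, 155 human pairs were active in both directions, 78 in 1 direction and 261 in neither. In mESCs, 148 mouse pairs were active in both directions, 94 in 1 and 259 in neither. Among all human tile 1 sequences 41.2% were active in hESCs, and among all mouse ones 33.6% in mESCs. Pairs with gene starts on both strands were the most often active: 81 of 121 human pairs were active in both directions in hESCs and 11 in neither, whereas of 300 human pairs without a gene start 46 were active in both and 220 in neither. Mouse pairs had the same order of shares in mESCs, with 45 of 88 pairs with 2 gene starts and 56 of 306 without a gene start active in both directions. A gene start here is the 5′ end of a gene record within 1000 bp of the TSS on its own strand, so a TSS at an internal start of a gene counts as having none.

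The levels followed the same order. Sequences of human pairs with 2 gene starts had a median activity of 4.85 in hESCs, sequences of pairs with a gene start on 1 side 1.96, and sequences of pairs with none 1.23. In mESCs the mouse medians were 4.12, 2.47 and 1.25. Pairs in which both TSSs are listed as eRNAs had median activities of 1.40 (161 human pairs, hESCs) and 1.32 (123 mouse pairs, mESCs). Both stood above the middle 50% of the random sequences, which ran from 0.812 to 1.28 in hESCs and from 0.815 to 1.28 in mESCs. The 95th percentile of the random sequences was 2.05 in hESCs and 1.88 in mESCs. The list of biotypes is held only in part here.

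The next question was how far the 2 directions differ. The median absolute difference was 0.43 on the log2 scale for human pairs in hESCs and 0.41 for mouse pairs in mESCs. A pair was called when the edgeR quasi-likelihood test gave an adjusted p under 0.05 and the directions differed at least 2-fold. In hESCs 94 of 494 human pairs (19.0%) and 110 of 501 mouse pairs (22.0%) were called, where 25.3% of all 1638 neighbouring TSS pairs tested (divergent, convergent and same strand) were. In mESCs 91 human (18.4%) and 111 mouse pairs (22.2%) were called, against 24.0% of all. The 995 divergent pairs are part of these 1638. Of the 512 same-strand neighbours, 27.0% were called in hESCs and 24.6% in mESCs. Convergent neighbours differed more, with 55.7% of 131 pairs called in hESCs, but 124 of them share no base, against 190 of the 995 divergent pairs. Among pairs without a shared base 54.8% of convergent and 34.2% of divergent pairs were called in hESCs. These classes also differed in activity, with medians of 2.19 and 1.54 in hESCs. There 20.2% of the convergent and 45.3% of the divergent pairs were active in neither direction. Over all pairs, the convergent median absolute difference exceeded that of divergent pairs by 0.71 on average over the 6 passages (range 0.52 to 0.81, higher in 6 of 6; exact sign-flip p = 0.0312, the smallest that 6 passages allow, and 0.0585 adjusted over 15 comparisons, which misses 0.05). Same-strand neighbours exceeded divergent pairs by 0.05 (range -0.03 to 0.12, exact sign-flip p = 0.0625, adjusted 0.0852). The 6 passages, from both cell types, recount the same pairs and barcodes, so sign-flip p-values do not measure the spread between pairs.

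The difference followed how much DNA the directions share. Among 318 pairs whose tiles share at least 114 bases, the median absolute log2 difference in hESCs was 0.33, 28 pairs (8.81%) were called and the rank correlation of the directions was 0.88. Among 190 pairs with no shared base, the median was 0.66, 65 pairs (34.2%) were called and the rank correlation was 0.40. In mESCs the same classes gave 35 of 318 and 63 of 190 pairs, with rank correlations of 0.85 and 0.34. Points of a correlation share the plasmid DNA library and, in the first class, sequence. The class without shared bases exceeded the class with at least 114 by 0.25 on average over the 6 passages (range 0.15 to 0.42, higher in 6 of 6; exact sign-flip p = 0.0312, adjusted 0.0585). Between them lay 354 pairs with 60 to 113 shared bases, of which 17.8% were called in hESCs, and 133 pairs with 1 to 59, of which 36.1% were.

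Turning shared DNA around could also be set against shifting it along 1 strand. The 114 same-strand neighbours that share at least 114 bases had a median absolute difference that differed from the divergent one by -0.01 on average (range -0.09 to 0.02 over the 6 passages; exact sign-flip p = 0.531, adjusted 0.569). Without shared bases the 130 same-strand neighbours exceeded the divergent pairs by 0.17 (range 0.04 to 0.24, higher in 6 of 6; exact sign-flip p = 0.0312, adjusted 0.0585), by 0.29 in human and 0.06 in mouse. Of the neighbours that share at least 114 bases, 12.3% were called in hESCs and 11.4% in mESCs. Within the divergent pairs that share at least 114 bases, 9 of 55 pairs with 2 gene starts (16.4%) were called in hESCs and 16 (29.1%) in mESCs, against 12 of 224 pairs without a gene start (5.36%) and 13 (5.80%). The classes also differed in activity, with medians of 8.29 and 1.34 in hESCs, where 5 of the 55 and 141 of the 224 pairs were active in neither direction. The difference between the classes was not tested.

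In 4 measured pairs the TSSs lay exactly 84 bp apart, so that the directions were the same DNA turned around. The human pair in an intron of RGS8 (chr1:182643978 and 182644063) read 0.835, 1.12 and 0.928 in the 3 hESC passages on the minus strand and 0.771, 0.823 and 0.834 on the plus strand, at the level of random DNA both ways. The human pair at chr10:126339576 read 0.82, 1.03 and 1.18 against 1.26, 1.12 and 1.11. Neither was called, with log2 differences of -0.25 (SE 0.17) and 0.20 (SE 0.17). The mouse intergenic pair on chromosome 16 printed above did differ in mESCs: 2.61, 2.36 and 3.17 on the minus strand and 1.32, 1.15 and 1.16 on the plus strand, a log2 difference of -1.17 (SE 0.14, edgeR adjusted p = 2.79e-07), and the passages of the directions did not overlap. With barcodes as replicates in limma the difference was -0.95 with an adjusted p of 0.0638, which misses the threshold. The mouse pair on chromosome 2 read 2.51, 1.93 and 2.13 against 1.90, 1.34 and 1.63 in mESCs and was not called.

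Active pairs could be nearly symmetrical over passages. The human eRNA pair on chromosome 11, with 3 CCAAT boxes in 1 orientation, read 4.48, 5.05 and 5.40 in hESCs on the minus strand, where the boxes are reversed, and 4.50, 5.07 and 5.26 on the plus strand. The log2 difference was -0.01 (SE 0.15), and in mESCs -0.04 with the same SE. At ATAD3A, a mitochondrial membrane ATPase, the gene side read 10.7, 12.9 and 15.2 and the opposite side, which has no gene start, 12.1, 14.6 and 13.6. In mouse, the Herc4 pair (Herc4 is a HECT-family ubiquitin ligase) read 21.5, 18.6 and 29.2 on the Herc4 strand in mESCs and 22.7, 19.3 and 24.8 on the strand of 1700120B22Rik. These pairs were chosen for their small difference, so the values describe them and test nothing. Over barcodes their differences were less close to 0 and less certain: 0.60 (SE 0.52) in hESCs for the chromosome 11 pair, -0.77 (SE 0.45) in mESCs for ATAD3A and -0.80 (SE 0.65) in mESCs for Herc4. The OSMR pair, whose TSSs lie 68 bp apart, read 3.00, 3.11 and 3.25 on the strand of OSMR, the oncostatin M receptor, and 2.94, 3.35 and 3.58 on the strand of OSMR-DT.

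At the other end, a TSS could be strong while its partner stayed at the level of random DNA. DPH5, a methyltransferase of diphthamide synthesis, held the largest difference in the cells of its own species in both human and mouse. The human minus-strand TSS (chr1:101491317, in an exon of DPH5) read 34.6, 35.6 and 41.8 in hESCs, and the DPH5-DT side 349 bp away read 1.11, 1.24 and 1.30, a log2 difference of -4.94 (SE 0.21, edgeR adjusted p = 3.07e-14). In mouse, where the gene lies on the plus strand, Dph5 read 19.9, 14.6 and 25.4 in mESCs and the A930005H10Rik side, 329 bp away, 1.21, 0.827 and 0.913, a log2 difference of 4.34 (SE 0.23, adjusted p = 4.83e-13). Every passage of the strong side stood above every passage of the weak side in both cell types.

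The same 2 loci each held a second, closer pair inside the first, and there both directions were strong. At human DPH5 the inner pair, 123 bp apart, read 37.1, 40.8 and 47.4 in hESCs on the DPH5 strand (chr1:101491339) and 25.9, 27.2 and 30.9 on the DPH5-DT strand (chr1:101491463). At mouse Dph5 the inner pair, 68 bp apart, read 17.8, 15.5 and 26.3 in mESCs on the Dph5 strand and 12.7, 10.1 and 16.2 on the A930005H10Rik strand. The outer TSSs were joined to each other because their nearer partners belonged to the inner pairs. These inner pairs were looked up after the values of the outer ones were seen. So the weak reading was that of the partner gene's outer TSS, and its inner TSS was strong.

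Mouse pairs named for the largest difference had a protein-coding start on the strong side. At Dph5 the weak partner A930005H10Rik is annotated as protein-coding too. The pairs at Spag7, Mrps30 (a mitochondrial ribosomal protein) and Ttf2 (a transcription termination factor) had log2 differences in mESCs of -4.14 (SE 0.20), -4.09 (SE 0.21) and -4.33 (SE 0.21), with the gene on the minus strand each time and no gene start on the other. Ttf2 itself read 13.8, 11.9 and 19.0 in mESCs and 7.77, 7.46 and 8.34 in hESCs, while the opposite strand stayed between 0.512 and 0.870 in all 6 passages. At Tmem161b the gene side read 15.4, 14.8 and 22.9 in mESCs and the side of the lncRNA A230107N01Rik 0.825, 1.01 and 0.990. The mouse intergenic pair on chromosome 11, named for its interaction, was also one-sided. Its plus side, without a gene start, read 36.1 against 0.935 in hESCs and 7.47 against 1.08 in mESCs (means over passages). Human pairs named for the largest difference were more mixed. In a pair inside exons of SRSF5, a splicing factor, with no gene start within 1000 bp on either strand, the plus side in the direction of SRSF5 read 27.7, 31.1 and 34.4 in hESCs and the minus side 1.97, 2.42 and 2.23 (log2 difference 3.82, SE 0.19). The strong side of the SRSF5 pair holds an ETS word 57 bases upstream of the TSS, and that of mouse Dph5 an ETS word 46 bases upstream.

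The stronger direction was not always that of the more abundant RNA. At UBR4, a ubiquitin ligase, the gene's own side read 1.41, 1.49 and 1.59 in hESCs and the opposite side, 144 bp away and assigned to EMC1-AS1, read 21.0, 24.5 and 28.2 (a log2 difference of 4.04, SE 0.23, edgeR adjusted p = 8.83e-13). In untransfected hESCs the RNA had the opposite order, with 23.5 ± 3.31 RPKM for UBR4 and 0.684 ± 0.215 RPKM for EMC1-AS1 (SD, n = 3). The UBR4 tile had 9 barcodes and 1802 DNA reads. Its TSS lies inside a UBR4 exon, and the annotated UBR4 start is at -78 bp from it. The annotated EMC1-AS1 start lies 158 bp downstream of the opposite TSS. RPKM is of the whole gene, whereas a tile covers a single TSS. At JTB, chosen after its values were seen among the orthologous pairs called in both species, the JTB-DT side was the stronger by 3.59 on the log2 scale, while JTB RNA stood at 48.8 ± 2.21 RPKM and JTB-DT RNA at 1.00 ± 0.213 RPKM. The human pair on chromosome 14 between OTX2-AS1 introns, without a gene start, read 13.2, 13.8 and 15.7 on its plus side, which holds a POU word 85 bases upstream of the TSS, and 1.27, 1.02 and 0.918 on its minus side in hESCs.

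Over all pairs the annotated side led by little. In 73 human pairs with a gene start on 1 side, that side was higher by 0.35 ± 0.017 on the log2 scale in hESCs and 0.25 ± 0.0533 in mESCs (mean over pairs, SD over 3 passages). The gene side was called higher in 15 pairs in hESCs, lower in 5 and not called in 53. In 107 mouse pairs it was higher by 0.31 ± 0.0441 in mESCs, with 29 called higher, 13 lower and 65 not called. For protein-coding against lncRNA starts, the protein-coding side led by 0.06 ± 0.0268 in hESCs over 101 human pairs, with 17 called higher and 15 lower, and by 0.38 ± 0.0182 in mESCs over 66 mouse pairs, with 19 called higher and 9 lower. Grouped instead by the biotypes the study lists, the mRNA side of human pairs with a listed lncRNA was lower by 0.11 on the log2 scale in hESCs (mean -0.11 ± 0.0284, 70 pairs) and stood at 0.02 ± 0.0118 in mESCs. The 2 annotations give different sets of pairs, so these values are not a change within 1 set. In an exact two-sided permutation test of whether the lead differed between hESC and mESC passages, each of these comparisons gave p = 0.1, the smallest that 3 against 3 allows.

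The RNA of the same genes was far less balanced. Of 101 human pairs with a protein-coding and a lncRNA start, 90 had more protein-coding RNA, with medians of 7.49 against 0.36 RPKM, and in mouse 62 of 66 did, with 9.28 against 0.307 RPKM. Among pairs with 2 genes whose RNA differed at least 2-fold and whose tiles were also called, the stronger tile was on the side of the more abundant RNA in 17 of 30 human and 19 of 28 mouse pairs. RPKM also depends on RNA stability, and reads were counted without strand, so that genes of a pair that overlap each other (42 human and 21 mouse pairs of those with RNA) share reads.

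DNA could also be read backwards with no TSS of its own on that strand. Where the TSSs lie near 198 bp apart, the upstream tile of a direction (tile 2) is the partner's tile 1 turned around. In this comparison, added after seeing the data, tiles that shared at least 114 bases were, over all pairs of a species, slightly stronger when read toward their own TSS. For mouse pairs the median log2 advantage was 0.25 ± 0.00706 in hESCs and 0.21 ± 0.0406 in mESCs (143 sequences of 73 pairs, SD over 3 passages), and for human pairs 0.13 ± 0.0146 and 0.14 ± 0.0353 (126 sequences of 65 pairs). Human pairs with 2 gene starts showed 0.58 ± 0.0446 in hESCs, where 12 of 46 sequences were at least 2-fold stronger toward the TSS and 1 was at least 2-fold weaker, and 0.31 ± 0.0148 in mESCs. In hESCs human pairs with a gene start on 1 side showed -0.07 ± 0.235 over 15 sequences, and those without a gene start 0.06 ± 0.0389. Mouse pairs with a gene start on 1 side showed 0.47 ± 0.0365 in hESCs and 0.48 ± 0.0305 in mESCs over 49 sequences. Mouse pairs with 2 gene starts showed 0.48 ± 0.152 and 0.37 ± 0.091 over 26 sequences. Those with none showed 0.08 ± 0.0083 and 0.1 ± 0.0476 over 68. The rank correlation of the 2 readings was 0.85 for human and 0.82 for mouse pairs in hESCs.

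Some sequence words went with the stronger side. The ETS word CCGGAAG, bound by factors such as GABP, was present in 8.0% of human and 9.68% of mouse member tiles, against 6.59% and 7.10% of all tile 1 sequences. Where 1 direction of a pair held it and the other did not, the holder was higher by a median of 0.92 on the log2 scale in 25 human pairs in hESCs, with 12 called higher and 2 lower, and by 0.73 in 31 mouse pairs in mESCs, with 14 called higher and 5 lower. The YY1 word ATGGCGG gave 1.18 in 15 human pairs in hESCs but 0.39 in mESCs (6 called higher and 3 lower), and in 20 mouse pairs it gave 1.32 in hESCs and 1.28 in mESCs. The GC box GGGCGG gave 0.32 in 59 human pairs in hESCs (15 called higher and 7 lower) and 0.16 in mESCs. In 60 mouse pairs it gave 0.49 in hESCs and 0.33 in mESCs (21 called higher and 8 lower in mESCs). TATA words (TATAAA) were rare, in 5.36% of human and 3.49% of mouse member tiles. Their holders were higher by a median of 0.06 in 29 human pairs in hESCs and 0.31 in 17 mouse pairs in mESCs. In the same order the CCAAT box gave 0.12 (67 pairs) and 0.18 (62), and AP-1 0.14 (20) and 0.21 (18). The E-box CACGTG gave -0.03 (15) and -0.1 (13), POU 0.42 (8) and 0.02 (10), and CRE TGACGTC 0.29 (10) and 0.14 (6). A single word could also lie in DNA shared by both tiles, in opposite orientations. Its distance from the TSS and the unshared bases could differ too, so orientation was not isolated. For ETS the median difference, forward minus reverse, was -0.22 in 24 human pairs in hESCs and -0.07 in 30 mouse pairs in mESCs. For the GC box it was 0.00 in 34 human pairs in hESCs and -0.07 in 64 mouse pairs in mESCs. The NRF1 word GCATGCG gave -0.51 over 9 human pairs in hESCs, and over 5 mouse pairs 0.96 in hESCs and -0.31 in mESCs. In all, 10 words were searched on both strands, and a match is not a bound site.

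Pairs of the 2 species could be compared where the study lists their TSSs as orthologs. Of 151 human and mouse pairs so linked, 33 human pairs were called in hESCs, 31 mouse pairs in mESCs, and 10 in both. All 10 had gene starts on both strands of the human pair. Of the 69 linked pairs with such starts, 20 human and 25 mouse pairs were called. Whether 10 joint calls are more than these separate calls would give was not tested. The rank correlation of the human difference in hESCs with the mouse difference in mESCs was 0.24 over all linked pairs. It was 0.39 for pairs with 2 gene starts and 0.03 for pairs without a gene start. In 9 of the 10, the orthologous side was the stronger in both species: among them SLC2A1, a glucose transporter, differed by -1.50 in human and -2.71 in mouse, and MRPS30 by 1.88 and 4.09. TSPYL1 was the exception, with 1.79 in human and -1.22 in mouse when both are written in the human order. Calls were fewer among the 76 linked pairs without a gene start, 11 human and 5 mouse, too few to read anything from their overlap. The list is held only in part here, so these are counts over the linked pairs and not over all pairs.

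Both directions were then followed from hESCs to mESCs. Of 988 human member sequences, 28 (2.83%) were at least 1.5-fold higher in mESCs and 151 (15.3%) lower (edgeR adjusted p under 0.05), where 2.63% and 13.2% of all 11861 sequences were. Of 1002 mouse sequences, 53 (5.29%) were higher and 140 (14.0%) lower. All members are tile 1, whereas the 11861 sequences hold both tiles. Among tile 1 sequences outside the pairs, 38 of 1955 human ones (1.94%) were higher and 375 (19.2%) lower. In mouse 52 of 1915 such sequences (2.72%) were higher and 299 (15.6%) lower. These counts depend on the scaling: with the random sequences as the reference the median of all sequences was -0.10, 81 members were called higher and 291 lower (21.8% higher), and with TMM library sizes, which put that median at 0.01, 126 were higher and 231 lower (35.3%). When the tiles shared at least 114 bases the ratios of the 2 directions went together, with a rank correlation of 0.71 in 155 human and 0.65 in 163 mouse pairs, and with no shared base it was 0.08 in 108 human and -0.06 in 82 mouse pairs.

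The largest falls on both sides of a pair came from listed orthologs. The human eRNA pair on chromosome 9, whose nearest protein-coding start is that of the pluripotency factor KLF4 at 259452 bp, read 28.7, 29.3 and 29.4 on the minus strand in hESCs and 6.06, 5.91 and 5.10 in mESCs, a log2 ratio of -2.36 (SE 0.22, edgeR adjusted p = 2.91e-09). Its plus strand read 26.6, 25.4 and 25.4 against 4.16, 3.81 and 3.57, a log2 ratio of -2.75 (SE 0.19, adjusted p = 8.12e-12). The mouse pair on chromosome 4, 198027 bp from the start of Klf4, read 19.0, 18.5 and 17.9 against 2.96, 3.05 and 2.43 on the minus strand and 11.2, 10.3 and 10.5 against 2.04, 2.08 and 1.74 on the plus strand, log2 ratios of -2.71 (SE 0.21, adjusted p = 4.68e-11) and -2.45 (SE 0.19, adjusted p = 5.91e-11). All 4 sequences stood higher in every hESC passage than in any mESC passage, and in neither pair did the directions differ by 2-fold. The nearest start names the locus and not a target gene. Rises on both sides were smaller: the mouse pair in an intron of Ahnak rose on the minus strand from 1.80, 1.69 and 2.05 to 5.34, 5.55 and 7.34 (log2 ratio 1.72, SE 0.14, edgeR adjusted p = 1.07e-10) and on the plus strand from 1.23, 1.16 and 1.38 to 2.08, 2.42 and 2.96 (0.99, SE 0.13). An AP-1 word stands in both of its tiles. In human, both sides of a pair in an intron of VMP1 rose, from 1.61, 2.01 and 1.95 to 4.40, 3.37 and 3.13 on the minus strand and from 1.09, 1.13 and 1.19 to 2.41, 2.53 and 2.44 on the plus strand. Both sides of the ANKRD42 promoter pair rose as well, with log2 ratios of 1.04 (SE 0.19) on the ANKRD42-DT strand and 0.76 (SE 0.17) on the ANKRD42 strand.

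In a smaller set the directions changed differently between the cell types. The test of the difference between the 2 ratios (interaction, at least 1.5-fold) called 56 human (11.3%) and 62 mouse pairs (12.4%), against 14.5% of all neighbouring pairs. Without hESC replicate 2 the counts were 32 and 41, and without hESC replicate 1 the human count was 37. The background of 14.5% includes the divergent pairs, and 16.2% of same-strand and 27.5% of convergent neighbours were called for interaction. Of pairs with at least 114 shared bases 4 of 155 human and 10 of 163 mouse pairs were called, and of pairs with none 24 of 108 and 22 of 82. The human eRNA pair on chromosome 15 had the largest human interaction, 2.50 (SE 0.24, edgeR adjusted p = 3.88e-07): its minus side, with an AP-1 word 59 bases upstream, read 5.36, 5.00 and 5.66 in hESCs and 1.30, 1.06 and 1.03 in mESCs, and its plus side read 1.00, 0.836 and 1.01 and then 1.48, 1.07 and 0.855. At Rai14 and the lincRNA 4930556M19Rik the directions changed places: Rai14 read 3.26, 3.93 and 4.14 in hESCs and 1.78, 1.90 and 1.77 in mESCs, and the lincRNA side 1.60, 1.98 and 1.63 and then 3.85, 3.69 and 4.37 (interaction 2.25, SE 0.20, adjusted p = 2.17e-07). Its Rai14 side had 7 barcodes, and over barcodes neither direction difference of this pair passed in limma (adjusted p = 0.236 in hESCs and 0.484 in mESCs). The mouse intergenic pair on chromosome 11 read 32.8, 36.2 and 39.2 on its plus strand in hESCs and 8.03, 6.05 and 8.33 in mESCs, and its minus strand, with 956 DNA reads, stayed between 0.688 and 1.45 (interaction -2.47, SE 0.34, adjusted p = 2.35e-05).

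Barcodes set a second limit on these differences. The SEs above are over passages, in which the same barcodes were counted each time, and their median over pairs was 0.17 in hESCs, against 0.40 when barcodes were the replicates in limma. Of 204 pairs called in hESCs, 156 (76.5%) were also called over barcodes, and of 202 in mESCs, 147 (72.8%).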

How the data were processed

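The authors counted barcodes in amplicons of plasmid DNA and of RNA, and deposited raw read counts per barcode with an index of tile sequences. Genes of untransfected cells were deposited as raw fragment counts, which per the labels came from cutadapt, HISAT2 and featureCounts (version 2.0.0 per the file headers); the 12 transfected RNA-seq libraries were not used. Groups and passages came from the labels. Transfections were summed per passage, and barcodes with at least 10 DNA reads per sequence, for sequences that kept 50% of their barcodes. TSS sequences carried 13 barcodes and random ones 3. edgeR 4.0.16 (R 4.3.3) used log DNA times the random sequences' median RNA/DNA as offset, Benjamini-Hochberg adjustment over 1638 pairs or 11861 sequences, and calls of 2-fold (direction) or 1.5-fold (interaction, cell type ratio). limma 3.58.1 and DESeq2 1.42.0 gave alternatives. The fits were tested on simulated data. Gene counts became RPKM, and gene records had a symbol in 87.4% (human) and 97.9% (mouse). Passages are the replicates, so p-values measure the spread between passages of 1 line per cell type with 1 DNA library. The sign-flip tests pool the passages of both cell types over the same pairs, barcodes and DNA. They ask whether a sign repeats over passages and do not measure the spread between pairs of a class. Named pairs, at most 1 per locus and species, were the 5 most different in both cell types, the 3 least different active ones, the 3 sharing most bases, the 3 largest interactions and the 3 sequences with the largest cell type ratio each way; some are given only by their group. Members and lists were chosen with earlier results of these data known. Median depth was 7622 DNA reads and 13 barcodes per member sequence.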

Additional observations from a re-analysis of the deposited data

Results flagged for a closer look

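The direction difference depended on the cell type, by the interaction test in edgeR, in 56 human and 62 mouse pairs, and in 32 and 41 without hESC replicate 2. Among the named human pairs the interactions (log2 difference in mESCs minus that in hESCs) were 2.50 for the eRNA pair on chromosome 15, 1.92 for ZBTB45, -1.83 for the pair in an ELMO1 intron, -1.72 for the pair in a TRAM2-AS1 intron and -0.80 for the OTX2-AS1 pair. The ZBTB45 pair rests on a plus side with 594 DNA reads and 7 barcodes. Among the named mouse pairs they were -2.71 for the intergenic pair on chromosome 8, -2.47 for the intergenic pair on chromosome 11, 2.25 for Rai14, 1.67 for the pair on chromosome 9, 1.60 for Tmem161b and -0.73 for the Ahnak pair. The chromosome 8 pair has a plus side with 476 DNA reads and 7 barcodes, and without hESC replicate 1 its interaction was -2.04 with an edgeR adjusted p of 0.0511.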

How the results depend on the processing

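Counts of called directions stayed within 1.5 times their values under TMM, DESeq2 size factors, the DESeq2 test, DNA minimums of 1 and 50, a minimum of 100 RNA reads, the first transfection alone, limma over barcodes and mutual nearest pairs. A 1.5-fold limit gave 173 human and 204 mouse pairs in hESCs and 167 and 179 in mESCs, and a 2-fold limit 25 human and 26 mouse interactions, 2 and 13 sequences higher and 49 and 52 lower in mESCs. TMM gave 49 human higher sequences, and DESeq2 size factors 50 human and 84 mouse ones. Leaving out 1 passage gave 32 to 58 human and 41 to 67 mouse interactions (the lowest without hESC replicate 2; 37 human without hESC replicate 1) and 31 to 66 higher mouse sequences (31 without mESC replicate 3); the cause was not tested. The median absolute difference of human pairs was 0.497 with the median of barcode ratios, 0.473 and 0.390 with DNA minimums of 1 and 50 and 0.399 up to 300 bp apart, and of mouse pairs 0.525 with the median of barcode ratios. The rank correlation became 0.651 with the median of barcode ratios, 0.761 up to 300 bp apart and 0.495 without shared bases in human, and 0.75 and 0.198 for the last 2 in mouse. Passage numbers do not pair hESCs with mESCs (correlations of deviations 0.034, 0.006 and 0.04): with them as a replicate block the hESC calls were 94 human and 111 mouse pairs, the mESC calls 93 and 111, and the interactions 65 and 74. With the library as block, added after seeing the data, 95 and 112, 94 and 110, and 59 and 73 were. The minus side of the ELMO1 pair lost its higher call without mESC replicate 1 (log2 ratio 0.49), and the plus side of the chromosome 8 pair its lower call without hESC replicate 1 (adjusted p = 0.170, edgeR).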

Other observations

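Values at the limits of the distance rule, given with no test: the farthest measured mouse pair, 580 bp apart, read 1.42 and 1.48 in mESCs, and just outside, human pairs 605 and 615 bp apart read 6.19 and 2.00, 1.04 and 19.7, and 6.57 and 3.75 in hESCs, and 2 mouse pairs 601 bp apart read 1.94 and 0.879, and 1.14 and 11.3 in mESCs.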
